A study of Mus musculus with 8 samples.

Results

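The genes described here encode 10 peptidyl-prolyl isomerases, 6 FK506-binding proteins (Fkbp11, Fkbp2, Fkbp1a, Fkbp3, Fkbp4 and Fkbp8) and 4 cyclophilins (Ppia, Ppib, Ppic and Ppif), out of 35596 genes in the deposited table. They were found by matching each listed symbol to its Ensembl gene ID, and all 10 were present once. The set was put together because Fkbp11 was higher in weight-cycled than in obese islets, so its fold changes between these groups, and the calls made on them, are a description and no evidence of a difference. Pancreatic islets of male mice of the inbred strain C57BL/6J were profiled by sequencing their polyadenylated transcripts. In the obese group (4 libraries) mice ate 10% fat for 9 weeks and then 60% fat for 18 weeks. In the weight-cycled group (4 libraries) they ate 60% fat for 9 weeks, 10% fat for the next 9 and 60% fat again for the last 9, so both groups ended on 60% fat and neither stayed on 10% fat. The order of the diets and the length of the last high-fat period (18 against 9 weeks) cannot be told apart. The islets were released by collagenase and hand-picked, and no label says whether a library held those of 1 mouse or of several. The spread between libraries may therefore be technical in part.

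Prolyl isomerases turn the peptide bond before a proline between its cis and trans forms, a slow step in the folding of many proteins. FK506-binding proteins and cyclophilins are unrelated in fold, and are the cellular receptors of the immunosuppressants FK506 and cyclosporin. Members with a signal peptide work in the endoplasmic reticulum (ER), where beta cells fold and oxidise proinsulin, whereas others work in the cytosol, the nucleus or mitochondria. Fkbp11, Fkbp2, Ppib and Ppic were taken here as the ER members, Ppia, Fkbp1a and Fkbp4 as the cytosolic members, Fkbp3 as nuclear, and Fkbp8 and Ppif as mitochondrial.

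The promoters of the 2 ER members with the largest fold changes are shown first, because unfolded-protein transcription factors bind defined letters near the start sites of many ER genes. RefSeq holds windows from 250 bases before to 50 bases after a start site for 9 of the 10 genes (build GRCm38.p6), and none was used for Ppic. Fkbp11 has 2 such windows on the minus strand of chromosome 15, chr15:98728149-98728448 and chr15:98727578-98727877, and Ppib has 1 on the plus strand, chr9:66059919-66060218. The start site of the upstream Fkbp11 window is the first base of the gene in GENCODE M21, and that of the downstream window lies inside the annotated gene. Capitals mark every match on either strand to CACGTG, to GACGTG (the core bound by XBP1) or to the shorter CCACG.
Fkbp11, upstream start: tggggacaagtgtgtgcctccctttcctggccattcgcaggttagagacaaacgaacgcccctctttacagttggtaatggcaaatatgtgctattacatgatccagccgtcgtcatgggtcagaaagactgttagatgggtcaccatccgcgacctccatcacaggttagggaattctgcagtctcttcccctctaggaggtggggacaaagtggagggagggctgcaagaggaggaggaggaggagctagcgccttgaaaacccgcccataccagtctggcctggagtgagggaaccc
Fkbp11, downstream start: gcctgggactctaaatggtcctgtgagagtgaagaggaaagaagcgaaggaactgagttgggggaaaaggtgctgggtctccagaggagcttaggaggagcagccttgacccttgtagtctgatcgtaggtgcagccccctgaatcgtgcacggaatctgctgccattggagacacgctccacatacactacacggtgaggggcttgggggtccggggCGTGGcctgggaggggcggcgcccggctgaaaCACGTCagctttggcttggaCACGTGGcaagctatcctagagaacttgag
Ppib: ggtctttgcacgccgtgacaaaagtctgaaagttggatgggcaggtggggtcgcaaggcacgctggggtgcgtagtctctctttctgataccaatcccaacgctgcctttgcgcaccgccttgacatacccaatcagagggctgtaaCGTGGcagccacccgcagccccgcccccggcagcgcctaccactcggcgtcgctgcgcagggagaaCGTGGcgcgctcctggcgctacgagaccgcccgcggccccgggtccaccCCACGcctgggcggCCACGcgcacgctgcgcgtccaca
The upstream Fkbp11 window held no match. The downstream one held CACGTG starting 20 bases after the start site, a GACGTG match on the opposite strand whose left end is the start site itself, and 2 CCACG matches, 1 of which overlaps CACGTG. The Ppib window held 4 CCACG matches. CACGTG occurred in 7.15% of the 32851 mouse windows, GACGTG in 6.38% and CCACG in 32.8%. The full ER stress element (CCAAT, 9 further bases, CCACG; 0.119% of windows), its variant ERSE-II (ATTGG, 1 further base, CCACG; 0.0365%) and TGACGTGG, which contains GACGTG (0.676%), had no match in any of the 12 windows of these genes. Fkbp8 also held GACGTG, Fkbp2, Fkbp3 and Ppif held CCACG alone, and Fkbp1a, Fkbp4 and Ppia held none of the 6 letter strings. The strings were chosen after the sequences were seen, matches describe letters and not binding, and the gene-level values do not tell which Fkbp11 start was used.

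Values are TPM, each gene's share of the library's transcripts after correction for length, so levels can be set side by side between genes, but a gene's TPM falls when others take more of the library. Read numbers cannot be had from TPM, so sequencing depth is unknown and counting error is not given. Beta-cell markers dominated every library: Ins1, Ins2, Iapp, Pdx1 and Slc2a2 summed to between 789418 and 803272 TPM in obese and between 784809 and 812458 TPM in weight-cycled islets. Across 8127 genes with a mean of at least 1 TPM, the median log2 fold change was -0.26, so positions relative to that median are also given below. Weight-cycled replicate 1 stood apart from its group in acinar markers (7 genes summing to 5635 TPM, against 2322 to 2544 TPM in the other 3). In bulk tissue, fewer cells of a type and less RNA per cell cannot be told apart.

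Ppia and Fkbp2 were the most abundant prolyl isomerase transcripts in obese islets, followed by Fkbp11. The obese means ran from Ppia at 206 TPM over Fkbp2 at 173, Fkbp11 at 70.7, Fkbp1a at 52.0, Ppib at 42.2, Fkbp4 at 41.9, Fkbp8 at 35.9, Fkbp3 at 17.3 and Ppif at 3.31 to Ppic at 0.666. Library ranges of neighbours in this order overlapped only for Ppib and Fkbp4. In weight-cycled islets Fkbp11 averaged 159 TPM, and its range overlapped that of Fkbp2, as the range of Fkbp2 did that of Ppia. The group ranges therefore did not order these 3 genes. Within single weight-cycled libraries Fkbp11 stayed below Ppia (ratio 0.573 to 0.994). The order of Fkbp11 and Fkbp2, and that of Fkbp2 and Ppia, changed between libraries. Ppib followed in this group, above Fkbp1a, whose range overlapped that of Fkbp4. In every weight-cycled library, however, Fkbp1a held more TPM than Fkbp4. Ppif and Ppic were the lowest of the 10 in both groups.

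**Figure D1:**
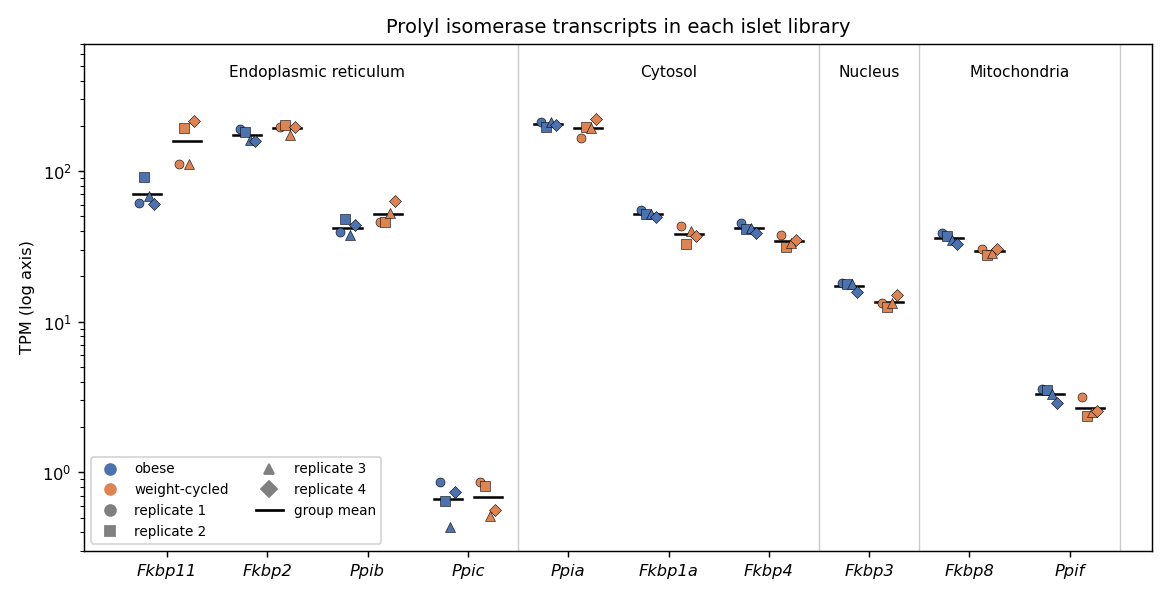
TPM (log axis) of the 10 prolyl isomerase genes in each library, grouped by cell compartment, with obese libraries in blue, weight-cycled libraries in orange, marker shape for the replicate and black bars for group means (n = 4). Fkbp11 is the gene whose weight-cycled libraries all lie above the obese ones, while Fkbp1a, Fkbp4, Fkbp3 and Fkbp8 all lie below.

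Fkbp11, which encodes a membrane-anchored ER prolyl isomerase typical of secretory cells, was higher in every weight-cycled library than in any obese one. Its gene (ENSMUSG00000003355.7) lies on the minus strand of chromosome 15, 98724366 to 98728198 (mm10), and has 1 annotated protein-coding transcript of 734 bases. The obese libraries held 61.8, 91.7, 68.9 and 60.3 TPM and the weight-cycled libraries 112, 195, 111 and 216 TPM (replicates 1 to 4). Obese replicate 2 was the highest of its group, and weight-cycled replicates 2 and 4 held far more than replicates 1 and 3. The means were 70.7 ± 14.5 and 159 ± 55.1 TPM (SD, n = 4 each), a ratio of 2.25. On the log2(TPM + 1) scale, which understates changes of low genes, the fold change was 1.11 (SE 0.219), or 1.37 above the median gene, and it ranked 14 among the 8127 genes. None of its 31-base words occurred in another annotated gene's transcripts, so its reads were not shared by sequence with a near-identical copy.

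Fkbp2, a small soluble ER prolyl isomerase, held 190.5, 181, 162 and 159 TPM in obese and 197, 201, 175 and 198 TPM in weight-cycled islets. The groups overlapped, since weight-cycled replicate 3 lay below 2 obese libraries. Its log2 fold change was 0.15 (SE 0.0926). Ppib, cyclophilin B, which works in the ER with collagen-modifying and disulfide-forming enzymes, held 39.4, 48.1, 37.6 and 43.7 TPM in obese and 46.0, 46.0, 52.9 and 62.9 TPM in weight-cycled islets. Obese replicate 2 lay above the 2 lowest weight-cycled libraries, and the fold change was 0.29 (SE 0.119). Ppic, cyclophilin C of the secretory pathway, was listed at 0.431 to 0.861 TPM in obese and 0.515 to 0.858 TPM in weight-cycled libraries, below the filter on low values, and was not tested. The ratio of Fkbp11 to Fkbp2 transcripts, which scaling each library by a single factor cannot change, was 0.325 to 0.506 in obese and 0.569 to 1.09 in weight-cycled libraries.

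Of the cytosolic members, Ppia, cyclophilin A, the abundant isomerase that binds cyclosporin, held 213, 197, 211 and 202 TPM in obese and 166, 196, 194 and 221 TPM in weight-cycled islets. Weight-cycled replicate 1 was the lowest and replicate 4 the highest of all 8 libraries, and the log2 fold change was -0.09 (SE 0.0979). Of its 31-base words, 28.6% also occur in transcripts of other genes, so its single value depends on how Salmon shared those reads. Fkbp1a, the FK506 receptor FKBP12 that also sits on calcium release channels, held 55.3, 51.7, 51.7 and 49.5 TPM in obese and 43.3, 33.1, 40.1 and 37.0 TPM in weight-cycled islets. Every weight-cycled library lay below every obese one, and the fold change was -0.44 (SE 0.0968), or -0.18 relative to the median gene. Fkbp4, the Hsp90 co-chaperone of steroid receptors, held 45.2, 41.4, 41.8 and 39.1 TPM in obese and 37.6, 31.5, 33.4 and 35.1 TPM in weight-cycled islets. These groups did not overlap either, and the fold change of -0.28 (SE 0.0884) was -0.02 relative to the median gene.

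Fkbp3, a nuclear isomerase, held 18.1, 17.7, 17.8 and 15.8 TPM in obese and 13.2, 12.6, 13.3 and 15.1 TPM in weight-cycled islets (log2 fold change -0.33, SE 0.0918). Fkbp8, a tail-anchored mitochondrial outer membrane protein, held 38.8, 37.2, 34.7 and 33.0 TPM in obese and 30.5, 27.7, 28.7 and 30.6 TPM in weight-cycled islets (fold change -0.28, SE 0.0863). For both genes the highest weight-cycled library stayed below the lowest obese one, and relative to the median gene they lay at -0.08 and -0.02. Ppif, cyclophilin D, which regulates the mitochondrial permeability transition, held 3.56, 3.49, 3.32 and 2.87 TPM in obese and 3.15, 2.37, 2.52 and 2.57 TPM in weight-cycled islets. Weight-cycled replicate 1 lay within the obese range, and the fold change was -0.24 (SE 0.109).

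With limma on log2(TPM + 1) and a Benjamini-Hochberg adjusted threshold of 0.05 over all tested genes, 1 of the 9 members tested was called higher, Fkbp11, where 1.21% of all 8127 genes were. The set was chosen on this contrast, so nothing is read from these calls or from their repeats under other settings. Another 4 were called lower, Fkbp1a, Fkbp4, Fkbp3 and Fkbp8, where 23.9% of all genes were, and Ppib, Fkbp2, Ppia and Ppif were not called. The same 5 genes were those whose groups did not overlap, 1 above and 4 below, where 1.3% and 21.1% of all tested genes were. After median-of-ratios scaling, which brings the median gene to -0.01, Fkbp11 was called at 1.44 (SE 0.282) and 0 members were called lower (0 also at an unadjusted p under 0.05), where 1.24% of all genes were called higher and 0.566% lower. Ppib, Fkbp2 and Ppia then lay at 0.61, 0.48 and 0.24, while Fkbp1a, Fkbp3, Fkbp4 and Fkbp8 lay between -0.11 and 0.046. With the dependence on transcript length taken out, library by library, Fkbp11 was at 1.24 (SE 0.233) and called higher, with 0 members called lower (2 at an unadjusted p under 0.05), where 1.93% of all genes were called higher and 1.61% lower. On TPM as deposited, the Fkbp11 call was lost without obese replicate 1 (log2 fold change 1.05), obese replicate 3 (1.10), weight-cycled replicate 2 (0.99) or weight-cycled replicate 4 (0.94), and 0 members were called lower (4 at an unadjusted p under 0.05) when obese replicate 1, 2 or 3 was left out, or when replicate 2, 3 or 4 of the weight-cycled group was. In these fits between 0 and 71 of all 8127 genes were called in either direction. Between 2558 and 3313 of all genes were lower there at an unadjusted p under 0.05. Without weight-cycled replicate 1, Ppib was called higher at 0.34 and Ppif lower at -0.30, where 4711 of all 8127 genes were called.

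**Figure D2:**
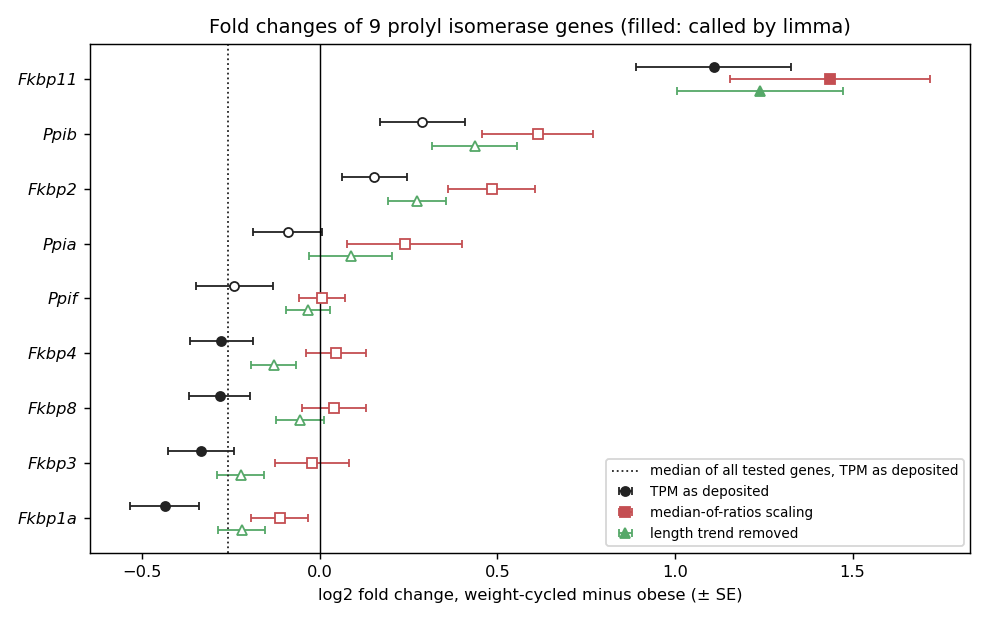
Log2 fold change (weight-cycled minus obese, ± SE) of the 9 tested prolyl isomerase genes on TPM as deposited (black), after median-of-ratios scaling (red) and with length trends removed (green), with filled markers for genes called by limma and a dotted line at the median of all tested genes. Fkbp11 lies above 1 in all 3 fits and is filled in each, while the filled markers of Fkbp1a, Fkbp4, Fkbp3 and Fkbp8 sit near the dotted line and become open after scaling.

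The ER members together took a larger part of the prolyl isomerase transcripts in weight-cycled islets, and the cytosolic members a smaller one. The 10 genes summed to 643 ± 30.6 TPM in the obese and 717 ± 81.9 TPM in the weight-cycled group (SD, n = 4 each). Fkbp11 alone made up 9.28% to 13.7% of that sum in obese and 17.1% to 26.4% in weight-cycled libraries. The 4 ER members made up 42.8% to 48.0% and 52.1% to 59.4%, and the 3 cytosolic members 43.3% to 48.4% and 34.9% to 41.1%. None of these ranges overlapped, which follows in part from the choice of Fkbp11. The mean log2(TPM + 1) of the ER members minus that of the cytosolic ones was -1.34 ± 0.137 in obese and -0.68 ± 0.187 in weight-cycled libraries, a difference of 0.66. The ER mean includes Ppic, which lay below the filter on low values and pulls that mean down. The negative sign therefore does not rank the compartments by level. The difference was 0.42 without Fkbp11, 0.79 without Ppic and 0.51 with Fkbp9, a further ER member, included. Between single genes, the ratio of Fkbp2 to Fkbp1a was 3.14 to 3.51 in obese and 4.36 to 6.09 in weight-cycled libraries, whereas the ratios of Ppib to Ppia (0.178 to 0.245 and 0.235 to 0.285) and of Fkbp2 to Ppia (0.769 to 0.920 and 0.897 to 1.19) overlapped.

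**Figure D3:**
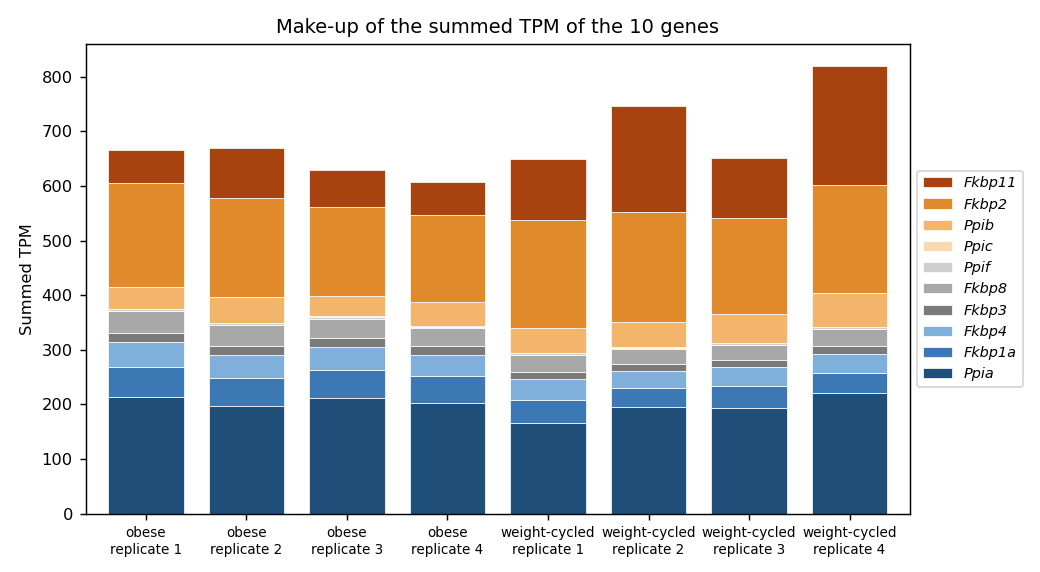
Stacked TPM of the 10 prolyl isomerase genes in each of the 8 libraries, with ER members in orange to brown, cytosolic members in blue and the others in grey. The Fkbp11 block at the top is largest in weight-cycled replicates 2 and 4, where it makes up 26.1% and 26.4% of the sum, against 13.7% or less in the obese libraries.

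Compartment did not sort all family members. Among 4 other ER FK506-binding proteins, only Fkbp9, which carries several isomerase domains, passed the filter on low values, and it was called lower, from 61.4 ± 4.59 to 47.3 ± 4.28 TPM (SD, n = 4 each). Its libraries did not overlap, with 56.1 to 67.2 TPM in obese and 41.3 to 51.2 TPM in weight-cycled islets, and its log2 fold change of -0.37 (SE 0.0952) was -0.11 relative to the median gene and -0.05 after scaling. Fkbp7, Fkbp10 and Fkbp14, ER isomerases of matrix-producing cells, averaged at most 0.747 TPM in either group. The summed stromal markers Col1a1, Col1a2, Col3a1 and Pdgfrb were at 0.998 to 2.32 TPM in all libraries.

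Of 26 other prolyl isomerase genes of the FK506-binding, cyclophilin and parvulin families, 19 were tested with limma, 0 were called higher (1 at an unadjusted p under 0.05) and 6 lower (1.21% and 23.9% of all tested genes), with a median log2 fold change of -0.20 beside -0.26 for all genes. Fkbp5, an Hsp90 co-chaperone induced by glucocorticoids, had the most negative log2(TPM + 1) fold change among the 19, -0.63 (SE 0.167), from 5.41 ± 0.598 to 3.23 ± 1.11 TPM. By the ratio of mean TPM, Ranbp2 fell further (0.546, against 0.598 for Fkbp5). Fkbp5 overlapped between groups by weight-cycled replicate 1, at 4.72 TPM against 4.71 TPM in obese replicate 4. Fkbp1b, the close relative of Fkbp1a that binds ryanodine receptors, was called lower at -0.37 (SE 0.101) and Fkbp15 at -0.41 (SE 0.130). Of 11 other cyclophilins tested, Ranbp2, a large nuclear pore protein with a cyclophilin domain, was called lower at -0.60 (SE 0.198) and Ppil2, a ubiquitin ligase with such a domain, at -0.44 (SE 0.119). Ppih, a cyclophilin of the spliceosome, was at 0.36 (SE 0.147) and was not called, with 3.44 to 4.43 TPM in obese and 4.04 to 7.21 TPM in weight-cycled libraries. After median-of-ratios scaling, and after removal of length trends, 0 of the 19 were called in either direction (8 and 5 at an unadjusted p under 0.05).

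Transcript length moved with the fold change across all genes, and the 3 tested ER members have short transcripts. Median annotated lengths were 734 bases for Fkbp11, 664 for Fkbp2 and 892 for Ppib, against 1623 for Fkbp1a, 1310 for Ppia and 3009 for Fkbp9. Over all tested genes the median log2 fold change went from -0.14 in the shortest of 5 length bins to -0.36 in the longest. Relative to the median of genes in its own length bin, Fkbp11 lay at 1.25, Ppib at 0.43, Fkbp2 at 0.30, Ppia at 0.07 and Fkbp9 at -0.07. In the same bin of the shortest transcripts, Fkbp3 (616.5 bases) lay at -0.19 and Fkbp4 (891 bases) at -0.13. Of the relatives in that bin that are not among the 10 genes, Fkbp1b (611 bases) lay at -0.23. Ppih (741 bases), no ER member, lay at 0.50, above Ppib and Fkbp2, and Fkbpl at 0.13, Nktr at -0.03 and Pin4 at -0.001. These lengths are medians over annotated protein-coding transcripts (2 each for Fkbp1a and Ppia, 3 each for Fkbp2 and Fkbp4, 4 for Fkbp3). The transcript used in islets may be longer or shorter, so the bin of such a gene, Fkbp4 above all, is uncertain. The part of length in these values was not tested.

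**Figure D4:**
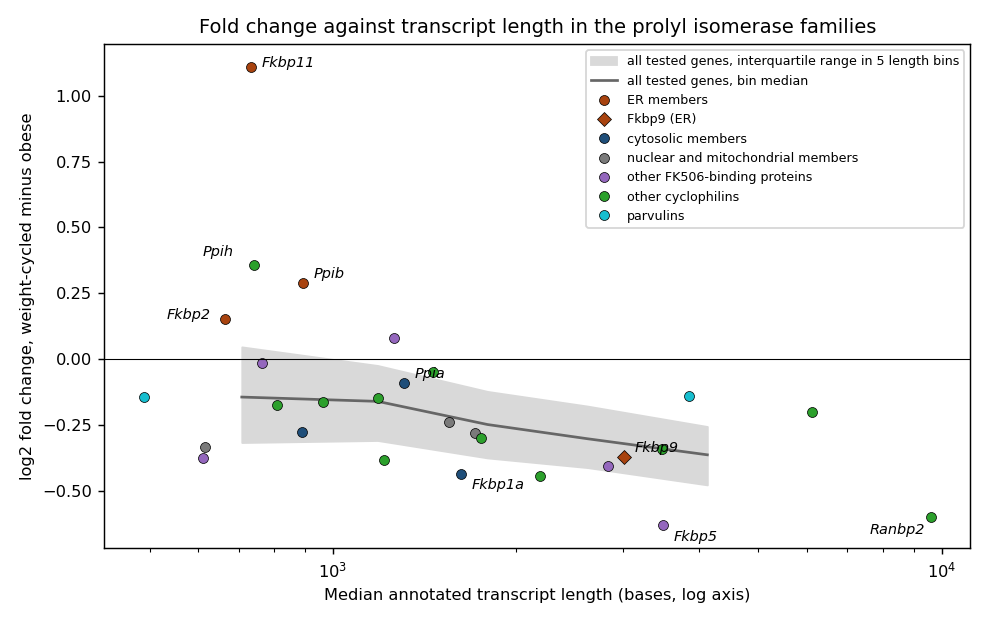
Log2 fold change (weight-cycled minus obese) against median annotated transcript length (bases, log axis) for all tested prolyl isomerase genes, coloured by family and compartment, over the median (line) and interquartile range (band) of all tested genes in 5 bins of length. Fkbp11 at 1.11 stands far above the band, Ppih, Ppib and Fkbp2 lie above it, and Fkbp9 lies inside it.

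The 5 genes nearest to Fkbp11 in profile were Ssr4, Sec11c, Gast, Dapl1 and Ttyh1. Likeness was the root-mean-square difference of log2(TPM + 1), centred on each gene's mean over the 8 libraries, and 7861 named genes were compared. The nearest were Ssr4, a subunit of the translocon-associated complex, at 0.168, and Sec11c, a catalytic subunit of signal peptidase, at 0.188. Gast, the gastrin gene (0.243), Dapl1 (0.258) and Ttyh1 (0.263) followed. Gast lay near the filter on low values, at 0.470 to 1.16 TPM in obese and 1.24 to 3.90 TPM in weight-cycled libraries. At such levels log2(TPM + 1) understates changes, and its likeness rests in part on that. A gene with the same value in every library would lie at 0.658, and the median gene lay at 0.809. Ssr4 held 389 to 498 TPM in obese and 659 to 1015 TPM in weight-cycled libraries, and Sec11c 187 to 235 TPM and 296 to 462 TPM. Both were highest in weight-cycled replicates 2 and 4 and, within the obese group, in replicate 2, as Fkbp11 was. All 8 libraries enter this likeness, so it includes the group difference for which Fkbp11 was chosen.

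**Figure D5:**
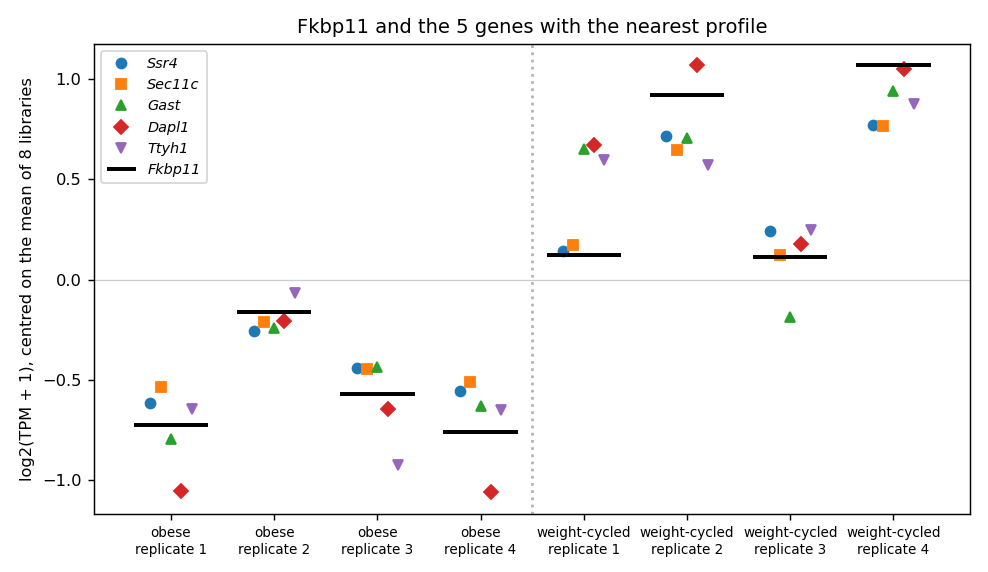
Log2(TPM + 1) centred on the mean of the 8 libraries for Fkbp11 (black bars) and the 5 genes with the nearest profile (coloured markers), by library. Ssr4 and Sec11c stay close to Fkbp11 in weight-cycled replicates 1 and 3, and in replicates 2 and 4 they lie below it.

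Among 21 measured ER folding partners, chaperones, disulfide isomerases and unfolded-protein regulators, 2 were called higher and 1 lower (1.21% and 23.9% of all tested genes), with a median log2 fold change of -0.10 beside -0.26 for all genes. Creld2, an ER stress-induced disulfide isomerase, went from 39.5 ± 4.89 to 67.3 ± 17.8 TPM (fold change 0.73, SE 0.162) and Sdf2l1, a cofactor of the chaperone BiP, from 121 ± 17.8 to 198 ± 44.9 TPM (0.69, SE 0.158). Canx, the membrane lectin chaperone calnexin, was called lower at -0.64 (SE 0.153). Hspa5, which encodes BiP, was at -0.04 (SE 0.149) and Hsp90b1, the Hsp90 gene of the ER, at -0.35 (SE 0.179), and neither was called. Xbp1, a transcription factor gene that activates ER genes in the unfolded protein response, was at -0.18 (SE 0.101) and Ern1, which encodes the kinase that splices its transcript, at -0.53 (SE 0.182), neither called, and gene-level TPM do not show Xbp1 splicing. After median-of-ratios scaling the median of the 21 was 0.23, with 4 called higher, Creld2, Sdf2l1 and the co-chaperones Dnajb11 and Dnajc3 (the last pair named after their values were seen), and 0 lower (1 at an unadjusted p under 0.05), where 1.24% and 0.566% of all genes were.

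Genes of the Hsp90 system, calcineurin and other targets of FK506-binding proteins were mostly called lower on TPM as deposited. Of 11 tested genes of this mixed list, 9 were called lower, where 23.9% of all genes were. In the other direction 0 were called higher (0 also at an unadjusted p under 0.05), where 1.21% of all genes were. The median log2 fold change of the list was -0.46. The groups of 5 of the 11 did not overlap, with weight-cycled libraries lower, where 21.1% of all tested genes were. Hsp90aa1 and Hsp90ab1, the cytosolic Hsp90 genes, were at -0.51 (SE 0.147) and -0.53 (SE 0.179). Both overlapped between groups, since weight-cycled replicate 1 (42.4 and 108 TPM) lay inside the obese ranges. The co-chaperones Ptges3 and Cdc37 were at -0.47 (SE 0.108) and -0.45 (SE 0.116). Ppp3cb, a catalytic subunit of calcineurin, the phosphatase that FK506 and cyclosporin inhibit through their binding proteins, was at -0.46 (SE 0.124), and the channel gene Trpc1 at -0.46 (SE 0.0992). After median-of-ratios scaling 0 of these 11 were called (3 at an unadjusted p under 0.05) and their median was -0.16. Of 9 tested mitochondrial partners of Fkbp8 and Ppif, Vdac1 and Vdac2, outer membrane channel genes, were called lower at -0.65 (SE 0.166) and -0.38 (SE 0.0966), a share near the 23.9% of all genes. Of this list 0 were called higher (0 at an unadjusted p under 0.05), and the list's median was -0.26. After that scaling 0 were called (4 at an unadjusted p under 0.05), with a median of 0.07.

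Fkbp11 is also abundant in plasma cells and in acinar cells, so their markers were measured beside it. Of 8 plasma and B cell markers, Tnfrsf17 was listed at 0 in every library, Mzb1 at no more than 0.212 TPM and Jchain at no more than 0.418 TPM, and the summed list ran from 2.37 to 4.82 TPM in obese and from 1.32 to 3.51 TPM in weight-cycled libraries. Cd79a, 1 of the 2 that passed the filter, was called lower. Over all tested genes 23.9% were called lower and 1.21% higher. Of the 7 acinar markers 0 were called by limma (0 at an unadjusted p under 0.05), and their sum ran from 1910 to 3587 TPM in obese and from 2322 to 5635 TPM in weight-cycled libraries. Weight-cycled replicates 2 and 4, with the most Fkbp11, held 2544 and 2511 TPM of acinar markers, inside the obese range, and replicate 1, with the most acinar markers, held 112 TPM of Fkbp11. The glucagon, somatostatin and pancreatic polypeptide genes summed to 13750 to 21081 TPM in obese and 11965 to 15555 TPM in weight-cycled libraries, with 0 of the 3 called (0 at an unadjusted p under 0.05). The 5 macrophage markers summed to 4.37 to 6.73 TPM and 2.15 to 4.17 TPM, and the 4 endothelial markers to 28.5 to 49.5 TPM and 16.7 to 37.2 TPM. The 4 duct markers summed to 38.9 ± 3.88 and 41.5 ± 9.63 TPM (SD, n = 4 each). Single markers of several types, named after their values were seen, were called lower, as 23.9% of all tested genes were. They were Lyz2 (macrophages), Kdr (endothelium), Krt7 (ducts) and, of the 5 beta-cell markers, Pdx1 and Slc2a2. The other tested duct marker, Spp1, was at 0.52 (SE 0.193) and the beta-cell gene Iapp at 0.31 (SE 0.158), neither called. After median-of-ratios scaling Slc2a2 alone of these markers was called lower, where 0.566% of all tested genes were. The part of cell make-up in the fold changes of the prolyl isomerase genes was not tested.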

How the data were processed

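Islet RNA was enriched for poly-A and sequenced, per the labels' protocols. The authors deposited TPM per gene, made with Salmon 1.5.2 on mm10, per the submitters' processing notes; how transcripts were summed to genes is not given in the sources used here. Columns summed to 999930 to 999949 TPM, so depth cannot be recovered. Of 35596 gene IDs, 35527 had a symbol. Lengths and positions came from GENCODE M21 (GRCm38).

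Genes with a mean of at least 1 TPM over all libraries were fitted with limma 3.58.1 in R 4.3.3 (mean-variance trend, no covariate, two-sided) on log2(TPM + 1). The fit was also run on simulated data with independent noise per gene and no shift common to all genes. That run therefore does not cover a shift of the median gene such as the one in these data. The members and gene lists were chosen with earlier results of these data known. Named were all members; called genes and up to 4 of the largest changes in other isomerase lists; up to 4 genes with the smallest p per partner list, plus Hspa5, Hsp90b1, Xbp1, Hsp90aa1 and Hsp90ab1; and the 5 nearest profiles. Alternatives were pseudocounts (0.1 and 5), filters, scalings, a loess on transcript length (span 0.5), variance and weight options, the replicate block and leaving out each library. Count tests were not run.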

Additional observations from a re-analysis of the deposited data

Results flagged for a closer look

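In 72 groups of 4 values (prolyl isomerase genes and their ratios), the gap of the highest or lowest library to its nearest neighbour was compared with the group's range, and 5 exceeded Dixon's 95% critical value, where chance gives about 1 in 20, or 3.6. Weight-cycled replicate 3 held 175 TPM of Fkbp2, and the rest of its group 197 to 201 TPM. Fkbp3 was at 15.8 TPM in obese replicate 4 against 17.7 to 18.1 TPM. Fkbpl, a gene of an Hsp90-binding relative of the family, stood at 1.83 TPM in replicate 2 of the weight-cycled group, below the 2.93 to 3.03 TPM of the rest. Ppil2 was at 4.10 TPM in obese replicate 4 against 5.32 to 5.57 TPM. Nktr, a large cyclophilin gene, stood at 1.73 TPM in replicate 1 of the weight-cycled group, above the 0.802 to 0.870 TPM of the rest.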

How the results depend on the processing

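The log2 fold change of Fkbp11, the gene for which the set was chosen, ran from 0.77 to 1.44 over the alternatives. The number of members called higher (1) became 2 with array weights and 0 without the filter on low values (2 at an unadjusted p under 0.05 by limma), and lay between 0 and 2 when single libraries were left out. The number called lower (4) became 0 with median-of-ratios scaling, quantile scaling, length trends removed or no filter, and lay between 0 and 5 without single libraries (at an unadjusted p under 0.05, 0, 2, 2 and 5 in those 4 settings). The total of 2044 genes called became 147 with median-of-ratios scaling, 296 with quantile scaling, 288 with length trends removed, 886 after rescaling without hormone, acinar and mitochondrial genes, 1080 with a filter at a mean of 5 TPM, 4795 with array weights and 0 without the filter (5686 at an unadjusted p under 0.05). Without single libraries it lay between 0 and 4711, namely 0 (2714 unadjusted), 41 and 35 for obese replicates 1, 2 and 3, then 4711, 40, 71 and 10 for replicates 1 to 4 of the weight-cycled group. Same-numbered libraries deviated from their group means with correlations of -0.28 to 0.23, not every library correlated best with its own number, and the numbers were not taken as pairs. With the replicate block, limma called 2903 genes, 1 member higher and 3 lower, Fkbp8 being lost. Signs turned for Fkbp4 (0.046) and Fkbp8 (0.040) with median-of-ratios scaling, for Ppia with that scaling (0.24) and with length trends removed (0.088), and for Ppif with median-of-ratios (0.0068) and quantile scaling (0.043). The ER minus cytosolic difference of 0.66 became 0.42 without Fkbp11, was between 0.51 and 0.79 in the other planned and added settings in which it was computed, and lay between 0.60 and 0.72 without single libraries; filters and variance options leave it as it is, and it was not computed with array weights. In some settings fewer genes or samples entered by construction, and the cause of these changes was not tested in any setting. Leaving out Fkbp11 or Ppic and adding Fkbp9 were chosen after the data were seen.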

Other observations

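Some further relatives of the family, named after their values were seen, are given as values. Fkbpl was at a log2 fold change of -0.02 (SE 0.148) and was not called. Pin4, of the parvulins, a prolyl isomerase family that neither FK506 nor cyclosporin binds, was at -0.14 (SE 0.157) and was not called. Fkbp6 was listed at 0 in every library.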
